A study of Arabidopsis thaliana with 4 samples.

Results

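The 41 histone genes described here encode the proteins that package DNA in Arabidopsis thaliana, and they were chosen by gene identifier as the listed H4, H3.1, H3.3, H2B, H2A and H1 genes of the deposited table, which holds 27654 genes in all. They comprise 8 H4, 5 H3.1, 3 H3.3, 10 H2B and 3 linker H1 genes, together with 4 canonical H2A, 3 H2A.W, 2 H2A.X and 3 H2A.Z genes. RNA was sequenced from whole seedlings of the Columbia ecotype, 2 libraries of the fip1-2 mutant and 2 libraries of a control. The control carried a SKP2B::GUS reporter, and the labels do not give whether fip1-2 carried it too, what kind of mutation fip1-2 is, or how many plants were pooled. Seedlings of both genotypes were grown in Murashige and Skoog medium for a time given as 8 without a unit. FIP1 is a subunit of the complex that cleaves and polyadenylates messenger RNA.

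A nucleosome core holds H2A, H2B, H3 and H4, and H1 binds the linker DNA between cores. Replication-coupled histones (H4, H3.1, canonical H2A and H2B) are made mainly in S phase, whereas replacement histones (H3.3 and H2A.Z) are exchanged into chromatin outside replication. In animals most replication-coupled histone messages end in a stem-loop without a poly(A) tail. In plants they are polyadenylated, so that oligo(dT) selection captures them and their 3′ ends depend on the polyadenylation machinery.

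The libraries held 20908391 and 20874114 reads in fip1-2 and 21056064 and 21104606 reads in control. Values are normalised read counts, that is reads per gene divided by the authors' size factor for that library, and 1 read was worth 0.961 to 1.04. FIP1[V], the gene of this name in the table, had 5217 and 5145 in fip1-2, against 1796 and 1912 in control, and its log2 fold change was 1.48 ± 0.05 (SE, n = 2 each; limma, adjusted p = 2.98e-11). The gene was thus higher and not lower in the libraries labelled fip1-2, and the reads cannot show which part of the gene they came from. The series names poly(A) tag sequencing in its design text, while its protocol describes fragmented oligo(dT)-selected mRNA. No step that marks the strand is described. The labels do not say that replicates came from separate cultures, so p-values measure only the spread between these libraries, which may be technical. Fewer cells of a type and less RNA per cell cannot be told apart in such whole-seedling RNA.

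Promoters were examined for elements known from plant histone genes, because genes that share an element can be set beside each other. The window ran from 250 bases before to 50 bases after each gene's annotated start in RefSeq assembly TAIR10.1, matched by identifier, and both strands were searched. The octamer CGCGGATC was found in 10 of 41 histone windows (24.4%), against 40 of 27561 windows of all protein-coding genes (0.145%). It was present in 2 of 8 H4, 3 of 5 H3.1, 2 of 4 canonical H2A and 0 of 10 H2B genes. The octamer was also in 1 of 3 H3.3, 1 of 3 H2A.W and 1 of 3 H1 genes, and so was not confined to replication-coupled types. No H2A.X or H2A.Z window held it. The following stretches show it in capitals in H4 and H3.1 genes, 5′ to 3′ on the gene's strand, with the first capital base 126, 71, 90, 120 and 126 bases before the start in the order given. AT1G07660 lies on chromosome 1 (plus strand), AT5G59690 on chromosome 5 (plus), AT1G09200 on chromosome 1 (minus), and both AT5G10400 and AT5G65360 on chromosome 5 (minus).
AT1G07660: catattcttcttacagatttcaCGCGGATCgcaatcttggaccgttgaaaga
AT5G59690: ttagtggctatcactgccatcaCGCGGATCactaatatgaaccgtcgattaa
AT1G09200: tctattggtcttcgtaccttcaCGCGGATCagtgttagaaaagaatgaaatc
AT5G10400: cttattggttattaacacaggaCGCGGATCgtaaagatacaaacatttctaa
AT5G65360: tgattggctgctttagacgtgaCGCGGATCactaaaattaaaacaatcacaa
The canonical H2A genes HTA10 (chromosome 1, plus strand, 74 bases before the start) and HTA13 (chromosome 3, plus strand, 68 bases before the start) are shown for the same octamer, which the HTA13 stretch holds on the other strand. HTA10 has a further octamer, not shown, at -10 from its start on the other strand. AT1G09200 has a further octamer, also not shown, at -19 on its own strand.
HTA10: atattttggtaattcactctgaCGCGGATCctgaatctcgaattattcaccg
HTA13: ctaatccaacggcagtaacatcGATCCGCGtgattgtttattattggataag

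The H2B genes carried another element. The hexamer ACGTCA, also known from plant histone promoters, was in 9 of 10 H2B windows (90%), in 13 of 41 histone windows (31.7%) and in 2527 of all protein-coding windows (9.17%). The hexamer was also in 2 of 5 H3.1, 1 of 3 H3.3 and 1 of 8 H4 windows, and so was not confined to H2B. Its letters cannot overlap those of the octamer on either strand. In several H2B genes it was followed by GATC after 2 more bases of any kind, and this longer form was searched only after the windows had been seen. It was found in 5 of 10 H2B, 1 of 8 H4 and 1 of 3 H3.3 windows. Among all 27561 windows it was in 18 (0.0653%). The stretches below show the hexamer in capitals for H2B genes whose values are given later. HTB1 and AT3G53650 are on the plus strand of chromosomes 1 and 3, HTB9 and HTB11 are on the minus strand of chromosome 3, and AT2G28720 is on the plus strand of chromosome 2. In the order printed, the hexamer starts 31, 50, 156, 88 and 96 bases before the annotated start.
HTB1: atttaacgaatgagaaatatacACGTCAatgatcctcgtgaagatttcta
AT2G28720: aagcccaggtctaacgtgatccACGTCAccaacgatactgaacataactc
HTB9: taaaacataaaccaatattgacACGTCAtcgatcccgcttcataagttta
HTB11: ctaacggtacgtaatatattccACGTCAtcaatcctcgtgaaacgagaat
AT3G53650: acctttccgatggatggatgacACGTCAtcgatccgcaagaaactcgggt
The telo-box AAACCCTA, known from ribosomal protein and histone promoters, was in 2 of 41 histone windows (4.88%), against 6.2% of all protein-coding windows. A match is a description of these letters and not of a bound site.

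**Figure D1:**
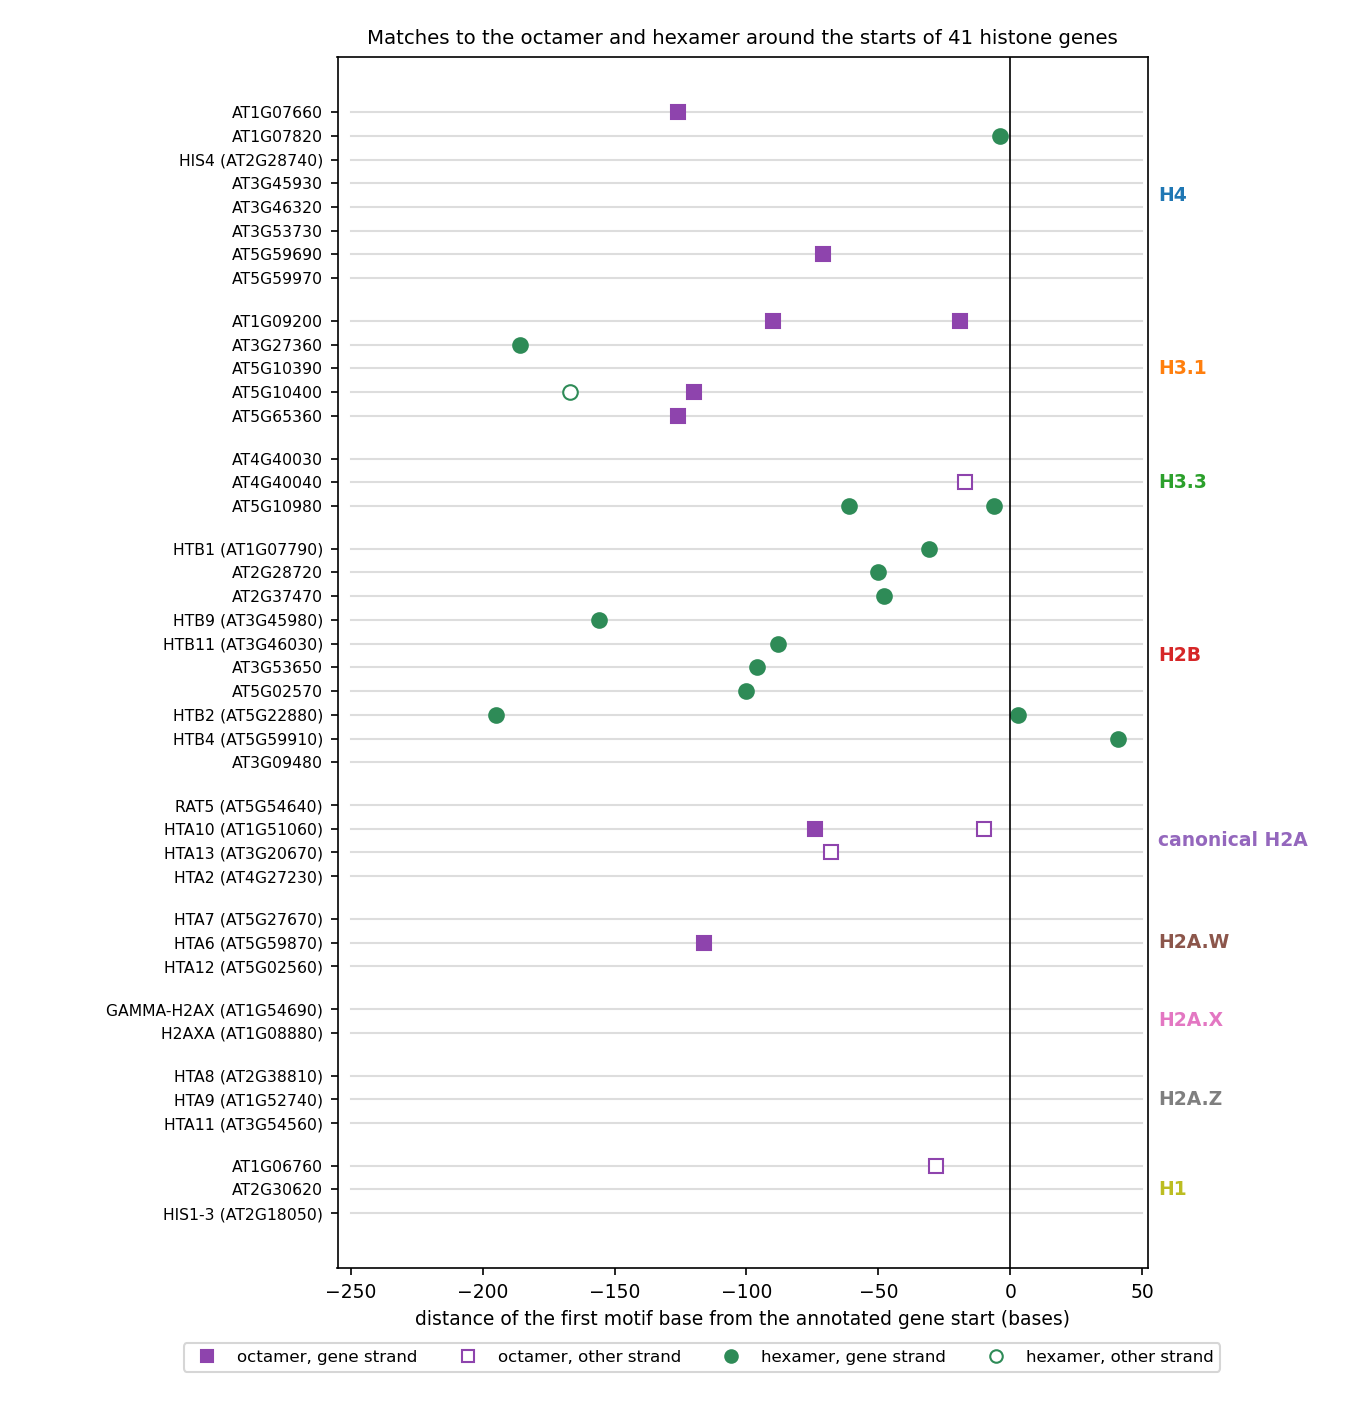
Positions of the octamer (squares) and hexamer (circles) in the promoter windows of the 41 histone genes, 1 gene per row grouped by type. The horizontal axis is the distance of the first motif base from the annotated gene start in bases, and open symbols are matches on the other strand. The hexamer is seen in 9 of 10 H2B rows and the octamer in 3 of 5 H3.1 rows.

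Histone transcripts as a group were more often lower than higher in fip1-2. Of the 41 genes, 40 had a mean of at least 10 and were tested, on log2(value + 2), with limma across all genes and Benjamini-Hochberg adjustment at 0.05. Lower levels in fip1-2 were found for 20 of them, higher levels for 6, and 14 did not pass. Over all 19931 genes tested, 26.8% were called lower and 27.0% higher, 53.8% in all. The histone log2 fold changes ran from -1.86 to 1.46 with a median of -0.22, while the median over all genes tested was 0. The fip1-2 libraries were both below the control libraries for 26 of the 40 genes and both above them for 8, against 39.0% and 38.2% of all genes tested. On the reads recovered from the values, edgeR called 20 histone genes lower and 6 higher, beside 26.7% and 27.1% of all genes (53.8% in all). DESeq2 called 14 lower and 3 higher, beside 17.3% and 19.0% of all genes (36.3% in all). Calls lost by DESeq2 include those of AT3G27360 (adjusted p = 0.208), AT4G40030 (adjusted p = 0.157), HTA10 (adjusted p = 0.131) and HTB9 (adjusted p = 0.109). Without the filter on low values, the same 4 genes had adjusted p-values of 0.0903, 0.0534, 0.125 and 0.166, and H2AXA had 0.0806. AT5G02570, an H2B gene, had no read in any library. Its annotated 522-base transcript lies entirely within exons of the H2A.W gene HTA12 on the opposite strand, where reads cannot be assigned without strand.

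The fold changes in these libraries also followed transcript length, and histone transcripts are short. Their longest annotated transcripts ran from 522 to 1666 bases, with a median of 842. Among the 8892 tested genes in that range, 35.8% were lower and 18% higher in fip1-2, with a median log2 fold change of -0.14. When all tested genes were divided by length into 10 groups, the median was -0.25 in the group of shortest transcripts and 0.26 in the group of longest. After a smooth trend fitted over length and GC content had been taken out of the values, 13 histone genes were lower, 9 higher and 18 not passed, and their median was 0.00. The background in that fit was 26.4% lower and 24.0% higher, 50.4% in all. The removal took out length and GC content together, so it does not give the part of either alone. Their parts in the histone differences were not tested further. The value with the trend removed is therefore given for each histone gene whose call the removal changed.

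**Figure D2:**
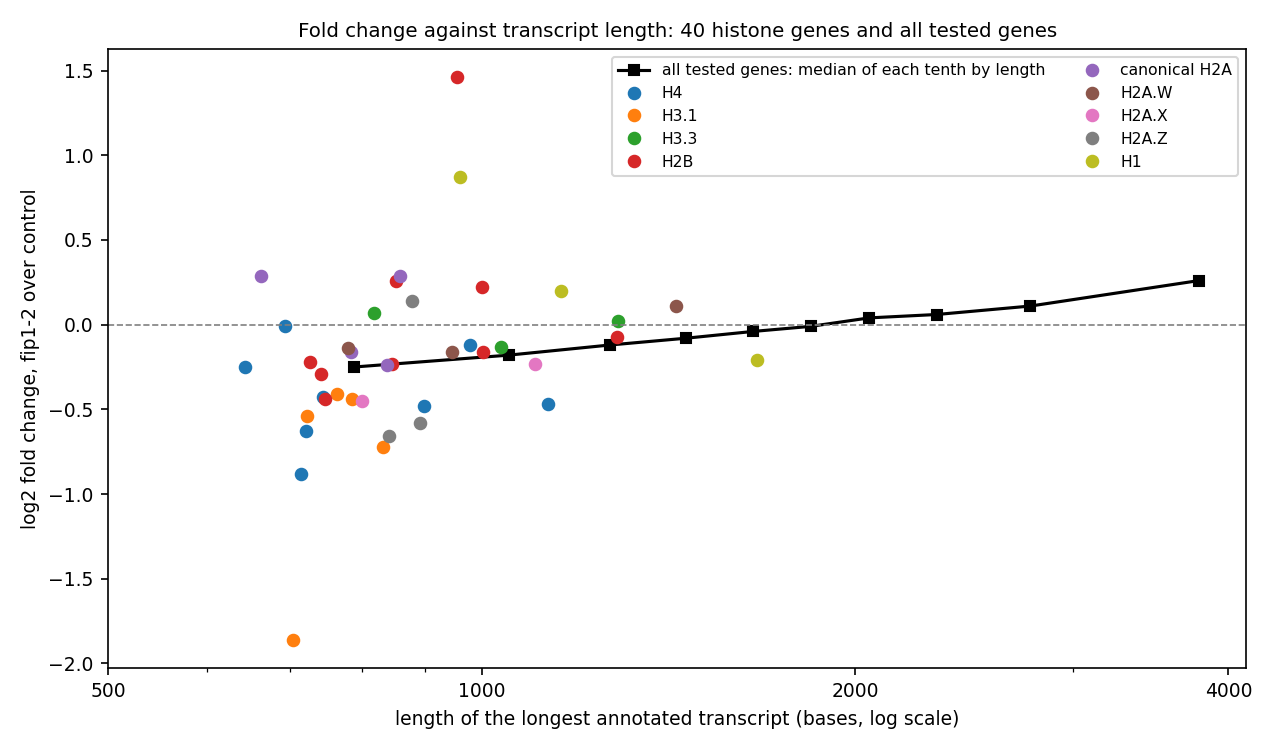
Log2 fold change of fip1-2 over control (vertical axis) against the length of the longest annotated transcript in bases (horizontal axis, log scale). Coloured points are the 40 tested histone genes by type, and black squares are the medians of all tested genes in 10 groups by length, which run from -0.25 in the shortest to 0.26 in the longest.

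**Figure D3:**
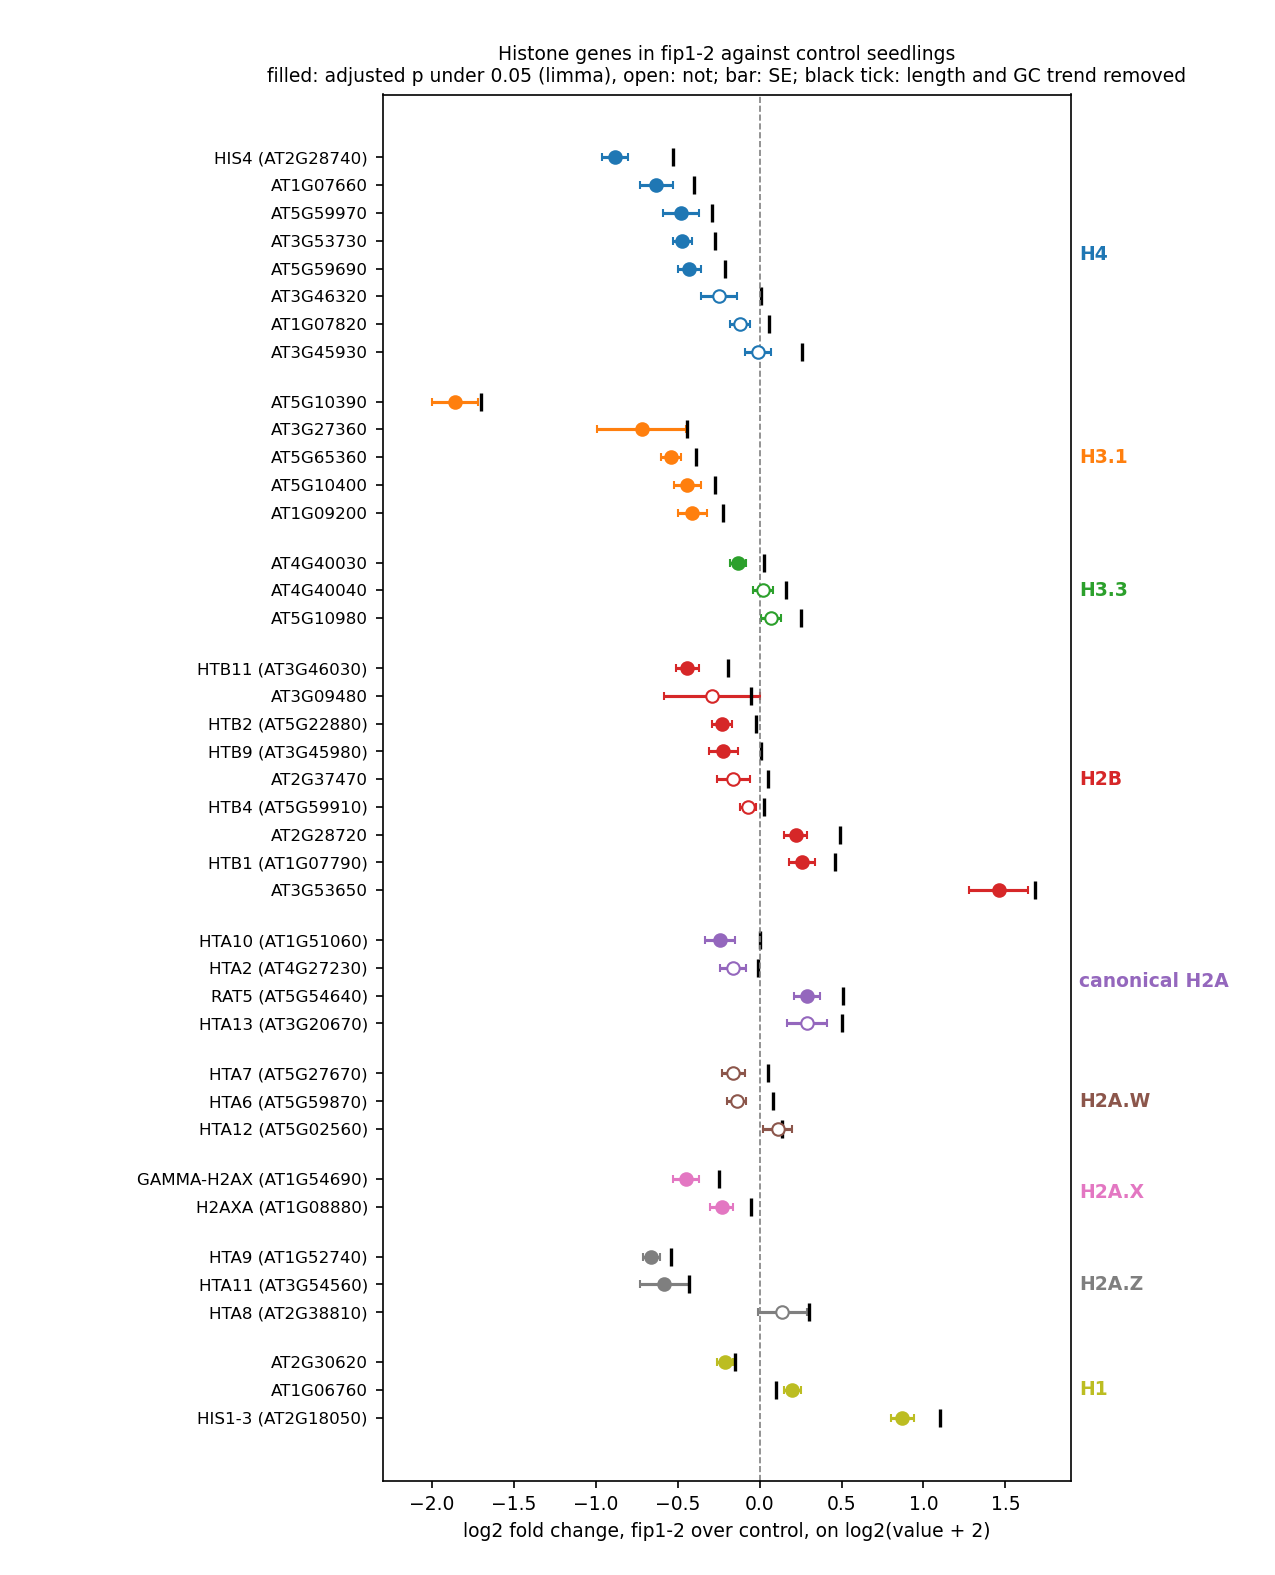
Log2 fold change of each tested histone gene, fip1-2 over control on log2(value + 2), with its standard error as a bar (n = 2 libraries each). Filled points had an adjusted p under 0.05 in limma and open points did not, and black ticks give the value after removal of the length and GC trend. H4 and H3.1 points lie at or below 0, from -0.01 to -1.86, while H2B points lie on both sides.

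H4, which pairs with H3 at the centre of the nucleosome, was lower in fip1-2 in 5 of its 8 genes and higher in none, beside 26.8% lower and 27.0% higher over all genes. The median log2 fold change of the 8 was -0.45, and -0.24 with the trend removed (5 lower, 1 higher, beside 26.4% and 24.0% of all genes). HIS4 (AT2G28740) had 402 and 348 in fip1-2, against 700 and 676 in control. Both mutant values lay far below both control values, a 0.545-fold level (log2 fold change -0.88 ± 0.08, limma adjusted p = 6.26e-07). AT3G53730 had 941 and 1007 in fip1-2, against 1346 and 1351 in control, with no overlap (log2 fold change -0.47 ± 0.06, adjusted p = 1.19e-05). AT1G07660 had 206 and 222 in fip1-2, against 344 and 322 in control, again apart (log2 fold change -0.63 ± 0.10, adjusted p = 7.29e-05). AT5G59690 had 989 and 903 in fip1-2, against 1212 and 1331 in control (log2 fold change -0.43 ± 0.07, adjusted p = 9.37e-05). AT5G59970, the fifth gene called, averaged 218 ± 23.2 in fip1-2 and 305 ± 28.5 in control (SD, n = 2 each). All 5 stayed lower with the trend removed, at log2 fold changes from -0.53 in HIS4 to -0.21 in AT5G59690.

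The other 3 H4 genes did not pass the test. AT3G45930 averaged 454 ± 20.6 in fip1-2 and 457 ± 5.36 in control, and its libraries overlapped; with the trend removed it was higher (log2 fold change 0.26, adjusted p = 0.0113). AT1G07820 averaged 1167 ± 17.6 in fip1-2 and 1269 ± 64.5 in control (log2 fold change -0.12 ± 0.06, adjusted p = 0.102). It passed as lower without control replicate 1 (adjusted p = 0.0413) and after quantile normalization (adjusted p = 0.038). AT3G46320 averaged 272 ± 35.3 in fip1-2 and 322 ± 23.6 in control (adjusted p = 0.0605), and passed as lower without control replicate 2 (adjusted p = 0.0201) or without fip1-2 replicate 2 (adjusted p = 0.0198). All H4 genes encode nearly the same protein, and their coding sequences were 78.8% to 98.1% identical. AT1G07660 and AT1G07820 were the most alike, with 28.5% and 19.4% of their 50-base transcript stretches found in another gene. Reads from such stretches can be split between copies in a way the files do not record. Summed over both, the pair had 1385 and 1376 in fip1-2, against 1567 and 1637 in control. AT3G45930 and AT3G46320 likewise share stretches, 25.7% and 27.9%, and together had 715 and 736 in fip1-2, against 793 and 767 in control. Neither sum overlapped between genotypes. Among all tested genes, 39.0% had both fip1-2 libraries below both control libraries and 38.2% had both above. HIS4 and AT3G53730 shared no 50-base stretch with any other gene.

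H3.1, the canonical H3 that is laid down at replication forks, was lower in fip1-2 in all 5 of its genes (median log2 fold change -0.54). With the trend removed 3 of 5 were lower (median -0.39). Over all genes 26.8% were lower, and 26.4% with the trend removed. AT5G10390 had the largest fall of all histone genes, with 65.6 and 87.2 in fip1-2, against 289 and 270 in control. Its mutant level was 0.273-fold that of control (log2 fold change -1.86 ± 0.14, limma adjusted p = 9.52e-08), and it stayed called in every alternative run, at log2 fold changes from -2.06 to -1.66. Its tandem neighbour on the same strand, AT5G10400, had 360 and 364 in fip1-2, against 489 and 496 in control. That difference was smaller (log2 fold change -0.44 ± 0.08, adjusted p = 0.000232), with no overlap between genotypes. AT5G65360 had 845 and 850 in fip1-2, against 1222 and 1246 in control (log2 fold change -0.54 ± 0.06, adjusted p = 2.47e-06). These 3 genes also passed with the trend removed, at log2 fold changes of -1.70 for AT5G10390, -0.27 for AT5G10400 and -0.39 for AT5G65360.

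The remaining H3.1 genes were less firmly lower. AT1G09200 had 1118 and 991 in fip1-2, against 1232 and 1592 in control, with the control libraries themselves far apart (log2 fold change -0.41 ± 0.09, limma adjusted p = 0.00206). Its value was -0.23 without control replicate 2 and -0.60 without control replicate 1, called lower in both fits. It did not pass with the trend removed (log2 fold change -0.22, adjusted p = 0.062), by DESeq2 (adjusted p = 0.0863) or with limma's robust eBayes (adjusted p = 0.099). AT3G27360, the least abundant, had 32.8 and 20.8 in fip1-2, against 38.4 and 51.4 in control (log2 fold change -0.72 ± 0.27, adjusted p = 0.0353). Its call was lost without control replicate 2 (log2 fold change -0.52, adjusted p = 0.211), without fip1-2 replicate 2 (-0.42, adjusted p = 0.256) and with the trend removed (-0.44, adjusted p = 0.189). It also shares 39.4% of its exon bases with AT3G27380 on the same strand, which was lower too (log2 fold change -0.34), so that reads of the overlap belong to either gene.

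H3.3 is the replacement H3 deposited by HIRA and ATRX and found over active genes. It was lower in 1 of 3 genes and higher in none, beside 26.8% lower and 27.0% higher over all genes. The median log2 fold change was 0.02. AT4G40040, the most abundant H3.3 gene, had 5873 and 5773 in fip1-2, against 5393 and 6090 in control (log2 fold change 0.02 ± 0.06, limma adjusted p = 0.761). AT5G10980 had 2606 and 2599 in fip1-2, against 2339 and 2640 in control (log2 fold change 0.07 ± 0.06, adjusted p = 0.364). For both genes the mutant libraries lay between the control libraries. AT4G40030 had 2548 and 2496 in fip1-2, against 2704 and 2828 in control, and was called lower (log2 fold change -0.13 ± 0.05, adjusted p = 0.0398). The direction of AT4G40030 turned with the trend removed (log2 fold change 0.03, adjusted p = 0.648). Its call was also lost without control replicate 2 (adjusted p = 0.196), without fip1-2 replicate 1 (adjusted p = 0.0851) and without fip1-2 replicate 2 (adjusted p = 0.164). With the trend removed the other two H3.3 genes were called higher, AT4G40040 at 0.16 (adjusted p = 0.0291) and AT5G10980 at 0.25 (adjusted p = 0.00227). AT5G10980 was also called higher without control replicate 2 (log2 fold change 0.15, adjusted p = 0.0391).

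**Figure D4:**
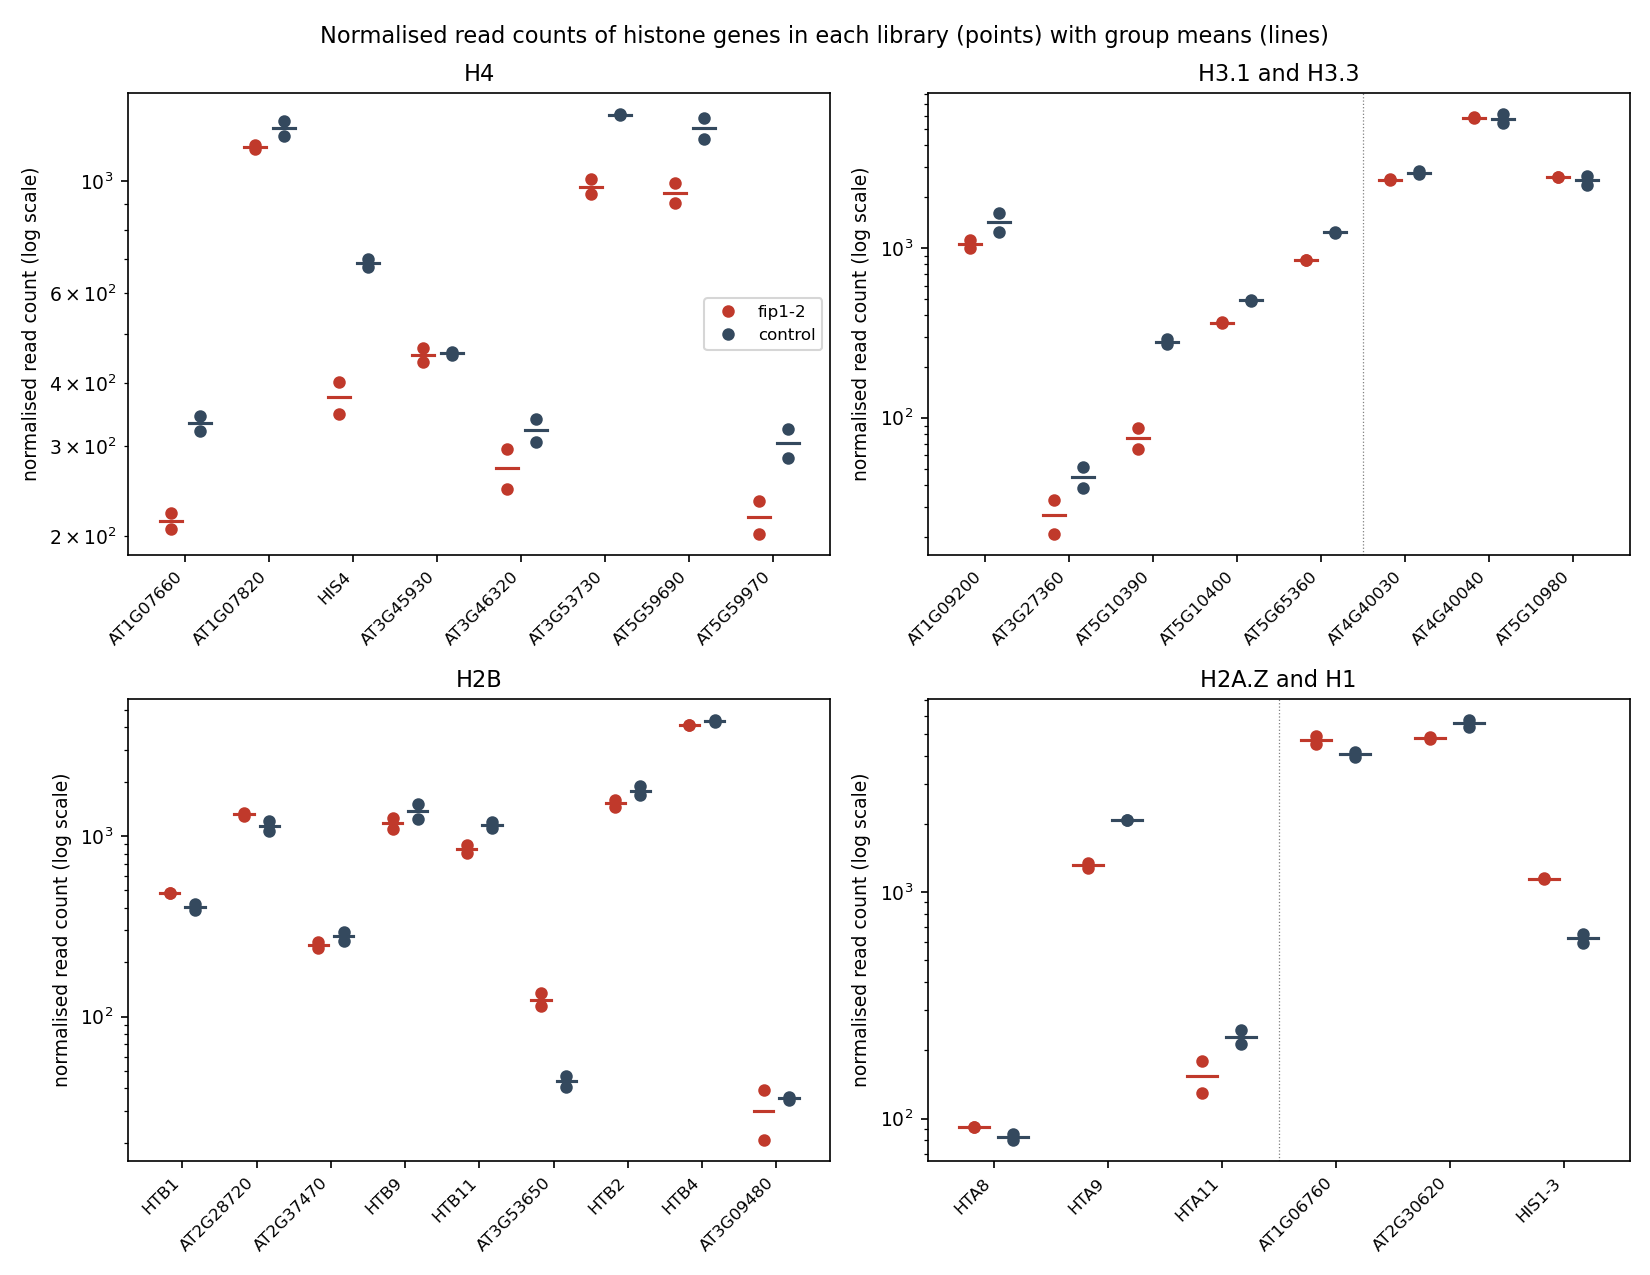
Normalised read counts (vertical axes, log scale) of histone genes in each library, with fip1-2 points left of control points and horizontal lines for the group means (n = 2 each). The H3.1 gene AT5G10390 stands at 65.6 and 87.2 in fip1-2, below 289 and 270 in control, and the H2B gene AT3G53650 stands at 134 and 114, above 47.1 and 40.8 in control.

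H2B is the partner of H2A in the nucleosome's outer dimers. Of its 9 tested genes 3 were higher in fip1-2, 3 were lower and 3 did not pass, shares near the 27.0% higher and 26.8% lower of all genes. The median log2 fold change was -0.16, and 0.03 with the trend removed (3 higher, 1 lower, beside 24.0% and 26.4% of all genes). AT3G53650 had the largest rise of all histone genes, with 134 and 114 in fip1-2, against 47.1 and 40.8 in control. It stood 2.83-fold higher in the mutant (log2 fold change 1.46 ± 0.18, limma adjusted p = 7.48e-06) and stayed called in every alternative run, at log2 fold changes from 1.34 to 1.68. HTB11 moved the other way, with 893 and 810 in fip1-2, against 1108 and 1200 in control (log2 fold change -0.44 ± 0.07, adjusted p = 7.91e-05). HTB2 had 1455 and 1575 in fip1-2, against 1883 and 1685 in control (log2 fold change -0.23 ± 0.06, adjusted p = 0.00664). The HTB2 call was lost with the trend removed (log2 fold change -0.02, adjusted p = 0.76), without control replicate 1 (-0.15, adjusted p = 0.0542) and without fip1-2 replicate 1 (adjusted p = 0.077). HTB1 had 487 and 481 in fip1-2, against 388 and 419 in control, and was higher (log2 fold change 0.26 ± 0.08, adjusted p = 0.0119). Its call was lost by DESeq2 (adjusted p = 0.118), without control replicate 1 (adjusted p = 0.0793) and without fip1-2 replicate 1 (adjusted p = 0.0588).

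AT2G28720, the last H2B gene called higher, averaged 1318 ± 44.7 in fip1-2 and 1135 ± 105 in control (log2 fold change 0.22 ± 0.07, limma adjusted p = 0.0132). The AT2G28720 call was lost by DESeq2 (adjusted p = 0.0665), without the filter on low values (adjusted p = 0.0572), without control replicate 1 (log2 fold change 0.12, adjusted p = 0.149) and without fip1-2 replicate 1 (adjusted p = 0.0932). HTB9 averaged 1174 ± 116 in fip1-2 and 1369 ± 189 in control and was called lower (log2 fold change -0.22 ± 0.09, adjusted p = 0.0429) although its libraries overlapped. With the trend removed the HTB9 value turned to 0.01 (adjusted p = 0.921), and without control replicate 1 it was -0.36. The HTB9 call was lost without control replicate 2 (log2 fold change -0.08, adjusted p = 0.404) and without fip1-2 replicate 2 (-0.12, adjusted p = 0.357). HTB9 shares 31.4% of its 50-base stretches with other genes. AT3G07315 on the opposite strand, which has no value here, covers 34.3% of HTB9 exon bases. AT3G45970, also on the opposite strand, covers 3.03% and was lower (log2 fold change -1.66). The part of both in the HTB9 value was not tested. HTB11 shares only 1.86% of its own stretches, with HTB9. HTB9 and HTB11 summed to 2149 and 1901 in fip1-2, against 2343 and 2702 in control. HTB4, the most abundant H2B gene with 41.9% of H2B counts in fip1-2 and 41.2% in control, averaged 4137 ± 6.92 in fip1-2 and 4337 ± 43.7 in control. It did not pass (log2 fold change -0.07 ± 0.05, adjusted p = 0.246), though it did after quantile normalization (log2 fold change -0.16, adjusted p = 0.00805). HTB1 stood at 0.46 and AT2G28720 at 0.49, both higher, once the trend was removed, and HTB11 at -0.19 (adjusted p = 0.0267). AT2G37470 averaged 249 ± 14.5 in fip1-2 and 279 ± 21.8 in control (adjusted p = 0.195), and AT3G09480 averaged 29.8 ± 12.9 in fip1-2 and 35.3 ± 0.938 in control (adjusted p = 0.421). Neither passed.

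Of the 4 canonical H2A genes 1 was higher in fip1-2 and 1 lower, near the 27.0% and 26.8% of all genes. With the trend removed 2 were higher and none lower, beside 24.0% and 26.4% of all genes. RAT5, known for mutants that resist transformation by Agrobacterium, had 572 and 527 in fip1-2, against 429 and 467 in control. The genotypes did not overlap (log2 fold change 0.29 ± 0.08, limma adjusted p = 0.00592), but the call was lost by DESeq2 (adjusted p = 0.0604) and without fip1-2 replicate 1 (adjusted p = 0.0672). Removal of the trend gave 0.51 (adjusted p = 7.82e-05). HTA10 had 564 and 588 in fip1-2, against 758 and 611 in control (log2 fold change -0.24 ± 0.09, adjusted p = 0.0358). That call rested on control replicate 1, without which the log2 fold change was -0.08 (adjusted p = 0.471), while without control replicate 2 it was -0.39. It was also lost without fip1-2 replicate 1 (adjusted p = 0.141) and without fip1-2 replicate 2 (adjusted p = 0.072), and with the trend removed the value was 0.00. HTA13 had 216 and 257 in fip1-2, against 209 and 177 in control (log2 fold change 0.29 ± 0.12, adjusted p = 0.057). AT3G20680 on the opposite strand covers 11.9% of HTA13 exon bases and was lower (log2 fold change -0.88). Its part in the HTA13 value was not tested. HTA10 shares 4.81% of its 50-base stretches with HTA13, and HTA13 shares 11.1% with other genes, HTA10 among them. HTA10 and HTA13 summed to 781 and 846 in fip1-2, against 968 and 787 in control, and these sums overlapped. HTA13 passed as higher with the trend removed (log2 fold change 0.50, adjusted p = 0.00263), without control replicate 1 (adjusted p = 0.00955) and without fip1-2 replicate 1 (adjusted p = 0.0271). HTA2 had 514 and 450 in fip1-2, against 523 and 550 in control (log2 fold change -0.16 ± 0.08, adjusted p = 0.122), and passed as lower without fip1-2 replicate 1 (adjusted p = 0.0435).

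H2A.W marks heterochromatin, and none of its 3 genes passed the test, where 53.8% of all genes were called. HTA7 had 532 and 571 in fip1-2, against 632 and 603 in control (log2 fold change -0.16 ± 0.07, limma adjusted p = 0.0694). HTA6 had 1192 and 1232 in fip1-2, against 1354 and 1316 in control (log2 fold change -0.14 ± 0.06). Its adjusted p of 0.05002 lay just above the threshold, and it passed as lower after quantile normalization (adjusted p = 0.0245) and with TMM factors (adjusted p = 0.0476). HTA12 had 375 and 419 in fip1-2, against 382 and 353 in control, with the genotypes overlapping (adjusted p = 0.317).

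H2A.X, which is phosphorylated at DNA breaks, was lower in fip1-2 in both of its genes, beside 26.8% lower over all genes. GAMMA-H2AX (AT1G54690) had 334 and 341 in fip1-2, against 483 and 443 in control (log2 fold change -0.45 ± 0.08, limma adjusted p = 0.000349). It stayed lower with the trend removed (log2 fold change -0.25, adjusted p = 0.0188). AT1G54680 on the opposite strand covers 32.3% of GAMMA-H2AX exon bases and was lower as well. It had 19.5 and 27.0 in fip1-2, against 72.1 and 67.0 in control. AT1G07983, also on the opposite strand and without a value here, covers 30% of GAMMA-H2AX exon bases. The part of both in the GAMMA-H2AX value was not tested. H2AXA (AT1G08880) had 1082 and 986 in fip1-2, against 1124 and 1308 in control (log2 fold change -0.23 ± 0.07, adjusted p = 0.0167). Its call was lost with the trend removed (log2 fold change -0.05, adjusted p = 0.602), by DESeq2 (adjusted p = 0.0704), without control replicate 2 (log2 fold change -0.12, adjusted p = 0.178) and without fip1-2 replicate 2 (adjusted p = 0.156).

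H2A.Z is exchanged into nucleosomes near gene starts by the SWR1 complex. HTA9, its main gene, had 1272 and 1348 in fip1-2, against 2071 and 2075 in control. The mutant level was 0.632-fold that of control (log2 fold change -0.66 ± 0.05, limma adjusted p = 1.77e-07), and with the trend removed the log2 fold change was -0.54. HTA11 had 129 and 180 in fip1-2, against 246 and 214 in control (log2 fold change -0.58 ± 0.15, adjusted p = 0.00359). Without fip1-2 replicate 1 the HTA11 value was -0.35 and its call was lost (adjusted p = 0.0542). HTA8 had 92.2 and 91.3 in fip1-2, against 85.5 and 80.6 in control, a difference that did not pass (log2 fold change 0.14 ± 0.15, adjusted p = 0.462).

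Linker H1 genes moved in opposite directions, with 2 higher in fip1-2 and 1 lower, beside 27.0% higher and 26.8% lower over all genes. HIS1-3 (AT2G18050), the drought- and abscisic acid-inducible linker histone, had 1149 and 1143 in fip1-2, against 653 and 598 in control. It was 1.83-fold higher in the mutant (log2 fold change 0.87 ± 0.07, limma adjusted p = 6.63e-08) and stayed called in every alternative run. AT2G30620 had 4828 and 4728 in fip1-2, against 5711 and 5368 in control (log2 fold change -0.21 ± 0.05, adjusted p = 0.00258). AT1G06760 had 4486 and 4856 in fip1-2, against 4161 and 3951 in control (log2 fold change 0.20 ± 0.05, adjusted p = 0.0055). AT1G04503 on the opposite strand, which has no value here, covers 41.8% of AT1G06760 exon bases. Its part in the AT1G06760 value was not tested. The AT1G06760 call was lost with the trend removed (log2 fold change 0.10, adjusted p = 0.119), after quantile normalization (adjusted p = 0.0797) and without fip1-2 replicate 2 (adjusted p = 0.0828). Measured per kilobase of transcript, HIS1-3 made up 15.0% and 14.5% of the summed H1 level in fip1-2, against 8.83% and 8.58% in control.

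Sums over a type do not depend on how reads were split among its own copies. H4 genes together had 4633 and 4604 in fip1-2, against 5942 and 6045 in control, a summed level 22.9% lower in the mutant. H3.1 genes had 2421 and 2313 in fip1-2, against 3270 and 3656 in control, 31.6% lower. H2A.Z genes had 1494 and 1619 in fip1-2, against 2403 and 2369 in control, 34.8% lower. In these types the mutant libraries lay well outside the range of the controls. The H2B sum was 6.25% lower, at 10004 and 9759 in fip1-2, against 10388 and 10692 in control. The H2A.X sum was 18.3% lower and the H2A.W sum 6.89% lower, both without overlap between genotypes. Such separation is common here, as 39.0% of single tested genes had both fip1-2 libraries below both controls and 38.2% above. The summed counts of H3.3, canonical H2A and H1 overlapped between genotypes. Per kilobase of transcript the H1 sum did not overlap, at 7964 and 8217 in fip1-2, against 7698 and 7253 in control, 8.23% higher. The log2 ratio of the H1 counts was 0.05, and -0.04 after quantile normalization. H3.3 genes had 11026 and 10867 in fip1-2, against 10436 and 11558 in control. With only 2 libraries in each group an exact permutation test of a sum cannot give a p below 0.333, so no test of the sums is given. With the trend removed the log2 ratios of the sums were -0.15 for H4, -0.38 for H3.1, -0.49 for H2A.Z and -0.10 for H2A.X, against -0.38, -0.55, -0.62 and -0.29 before. Those of H2B, H3.3, canonical H2A and H2A.W turned to 0.08, 0.15, 0.19 and 0.08 with the trend removed.

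**Figure D5:**
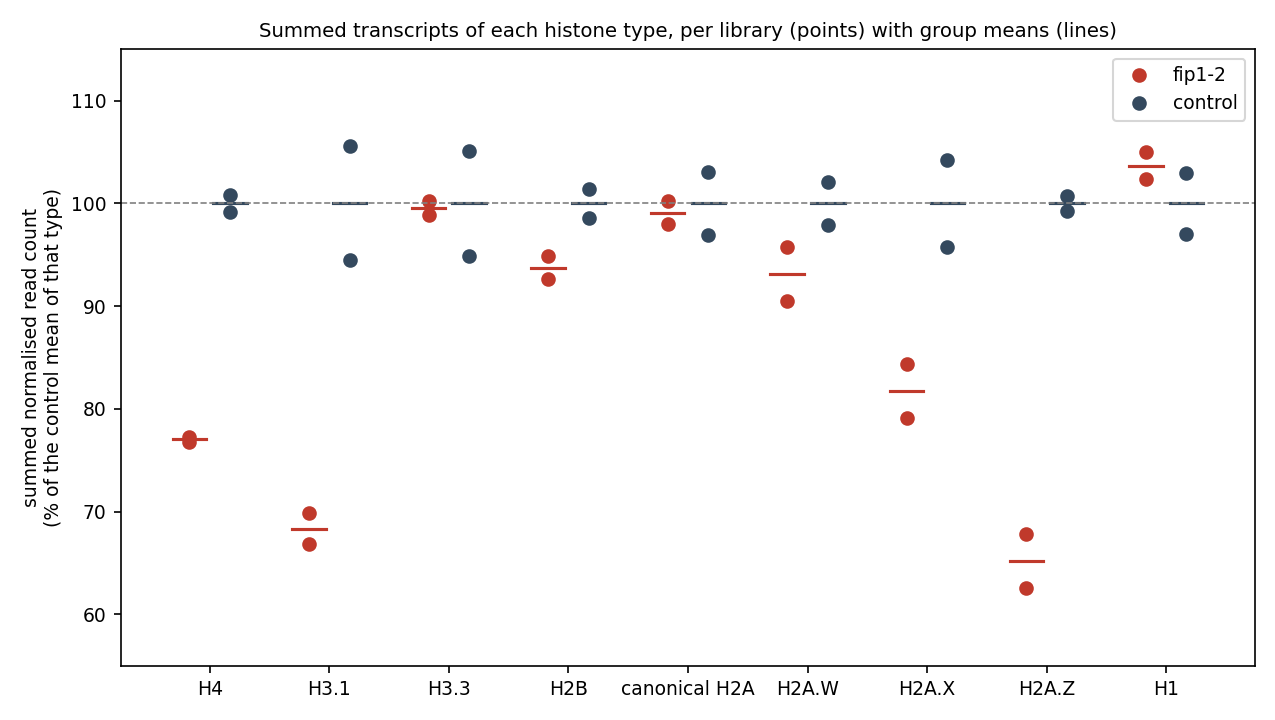
Summed normalised read count of each histone type in each library, as a percentage of the control mean of that type (vertical axis, not starting at 0), with fip1-2 points left of control points and lines for the group means. The H2A.Z, H3.1 and H4 sums of fip1-2 lie 34.8%, 31.6% and 22.9% below the control mean, and the summed counts of H3.3, H2A and H1 overlap with control.

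The make-up within types shifted with these sums. Per kilobase of transcript, H3.1 made up 24.0% and 23.5% of H3.1 and H3.3 together in fip1-2, against 31.2% and 31.4% in control. H2A.Z made up 22.5% and 23.9% of all H2A in fip1-2, against 29.8% and 29.9% in control. For both shares the spread within a genotype was small beside the difference between genotypes. The leading H3.3 gene, AT4G40040, held 44.7% and 44.5% of H3.3 in fip1-2 and 43.3% and 44.2% in control, per kilobase. All histone genes together took 0.212% and 0.209% of the summed values of fip1-2, against 0.242% and 0.244% in control, a share 13.4% lower. Their summed counts themselves were 8.33% lower, at 45422 and 45263 in fip1-2, against 48859 and 50064 in control.

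Set by class, 14 of the 26 tested replication-coupled genes were lower in fip1-2, 4 were higher and 8 did not pass, with a median log2 fold change of -0.24, beside 26.8% lower and 27.0% higher over all genes. With the trend removed these counts were 9 lower, 6 higher and 11 not passed, with a median of -0.02. Over all genes that fit called 26.4% lower and 24.0% higher. Of the 6 replacement genes 3 were lower, none higher and 3 did not pass, with a median of -0.05. Their counts with the trend removed were 2 lower, 2 higher and 2 not passed, with a median of 0.09. The replication-coupled class was itself split. Its H4 and H3.1 genes were lower in 10 of 13 and higher in none (median -0.47), while its H2A and H2B genes were lower in 4 and higher in 4 of 13 tested (median -0.16). The replacement class divided between H2A.Z, with 2 of 3 lower (median -0.58), and H3.3, with 1 of 3 lower (median 0.02). All tested genes in the length range of the H4 and H3.1 transcripts, 644 to 1131 bases, were lower in 41.1% and higher in 14.3%, with a median of -0.20. With the trend removed, 8 of the 13 H4 and H3.1 genes were lower and 1 was higher (median -0.27), and of the 13 H2A and H2B genes 1 was lower and 5 were higher (median 0.03). These counts describe the lists, and no test of a difference between lists was made. In summed level the replication-coupled genes had 18924 and 18500 in fip1-2, against 21520 and 22198 in control, 14.4% lower. Replacement genes had 12520 and 12486 in fip1-2, against 12839 and 13927 in control, 6.57% lower.

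Fold changes were then set beside the promoter elements. The 5 H4 and H3.1 genes with the octamer shown above had a median log2 fold change of -0.44, all 5 called lower. The 8 without it had a median of -0.48, with 5 called lower and 3 not passed. HIS4 and AT5G10390, the H4 and H3.1 genes with the largest falls, held neither the octamer nor the hexamer in their windows. Among H2A genes with the octamer, HTA10 was called lower, whereas HTA13 did not pass and had a positive log2 fold change. Of the 8 tested H2B genes with the hexamer, 3 were higher and 3 lower, and both AT3G53650 and HTB11, which moved farthest apart, carried it. Outside the histone list, 24 tested genes held the octamer, of which 8 were lower and 4 higher (median -0.08), beside 26.8% lower and 27.0% higher over all genes.

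Histone chaperones and exchange factors, which carry histones and load them, showed no common direction. Of 20 listed genes 4 were higher in fip1-2, 3 were lower and 13 did not pass, with a median log2 fold change of 0.01. Over all genes 53.8% were called, 27.0% higher and 26.8% lower. Removal of the trend left 2 higher, 3 lower and 15 not passed, beside 24.0% higher and 26.4% lower over all genes. ATRX, a chromatin remodeller that takes part in H3.3 deposition, had 1327 and 1158 in fip1-2, against 773 and 756 in control (log2 fold change 0.70 ± 0.07, limma adjusted p = 1.19e-06). NRP1, which binds H2A-H2B dimers, had 1228 and 1195 in fip1-2, against 1627 and 1510 in control (log2 fold change -0.37 ± 0.06, adjusted p = 9.18e-05). AT4G37210, annotated as a tetratricopeptide repeat protein and listed as an H3 chaperone, had 353 and 355 in fip1-2, against 521 and 462 in control (log2 fold change -0.47 ± 0.08, adjusted p = 0.000292). These 3 kept their direction and call with the trend removed, at log2 fold changes of 0.34 for ATRX, -0.25 for NRP1 and -0.52 for AT4G37210. PIE1, the ATPase of SWR1, had 886 and 856 in fip1-2, against 636 and 654 in control (log2 fold change 0.43 ± 0.06, adjusted p = 5.54e-05). PIE1 has a long transcript of 6964 bases, and its value turned to -0.09 with the trend removed (adjusted p = 0.255). SPT16, of the FACT chaperone, likewise stood at 0.21 ± 0.05 (adjusted p = 0.00401), and at -0.10 with the trend removed (adjusted p = 0.1). SEF, another SWR1 subunit, averaged 42.3 in fip1-2 and 68.1 in control (log2 fold change -0.67 ± 0.21, adjusted p = 0.0129). Its call was lost without control replicate 1 (adjusted p = 0.0718), without fip1-2 replicate 1 (adjusted p = 0.0977), by DESeq2 (adjusted p = 0.132) and with the trend removed (log2 fold change -0.47, adjusted p = 0.0712). The CAF-1 subunits, which deposit H3.1 with H4 at replication forks, did not pass, at log2 fold changes of 0.24 ± 0.10 for FAS1, 0.00 ± 0.14 for FAS2 and -0.12 ± 0.08 for MSI1. FAS1 passed as higher without control replicate 2 (log2 fold change 0.35, adjusted p = 0.0127). HIRA did not pass either (log2 fold change 0.00 ± 0.09, adjusted p = 0.991), though with the trend removed it was lower (log2 fold change -0.26, adjusted p = 0.0312).

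Genes of DNA replication, which are transcribed in the same phase of the cell cycle as the replication-coupled histones, were more often higher than lower in fip1-2. Of 15 listed S-phase genes 8 were higher, 2 were lower and 5 did not pass, beside 27.0% higher and 26.8% lower over all genes, with a median log2 fold change of 0.21. These transcripts are long, with a median of 2604 bases. With the trend removed 5 were higher, 2 lower and 8 not passed (median 0.11), beside 24.0% higher and 26.4% lower over all genes. The calls lost to the removal were those of MCM2 (log2 fold change 0.26, against 0.10 with the trend removed), MCM3 (0.24, against 0.12) and RNR1 (0.21, against 0.07). MCM2 and MCM3 also lost their calls without control replicate 2 (adjusted p = 0.0503 and 0.125) and without fip1-2 replicate 2 (adjusted p = 0.0728 and 0.159), and RNR1 without fip1-2 replicate 1 (adjusted p = 0.0962). ICU2, the catalytic subunit of DNA polymerase alpha, had 563 and 561 in fip1-2, against 377 and 325 in control (log2 fold change 0.68 ± 0.09, limma adjusted p = 1.09e-05). MCM4, of the replicative helicase, had 425 and 473 in fip1-2, against 277 and 288 in control (log2 fold change 0.66 ± 0.09, adjusted p = 1.93e-05). The helicase genes MCM5 and PRL (MCM7) were higher too, at 0.47 ± 0.08 and 0.44 ± 0.08. The genes called lower were PCNA2, the sliding clamp (log2 fold change -0.43 ± 0.09, adjusted p = 0.00144), and TSO2, a ribonucleotide reductase subunit (log2 fold change -0.24 ± 0.08, adjusted p = 0.0248). The TSO2 call was lost without control replicate 1 (adjusted p = 0.276), without fip1-2 replicate 1 (adjusted p = 0.133) and by DESeq2 (adjusted p = 0.134). With the trend removed the ICU2 value was 0.25 (adjusted p = 0.0333). The summed level of the S-phase list was 6282 and 6231 in fip1-2, against 5447 and 5145 in control. It thus lay higher in the mutant where the H4 and H3.1 sums lay lower, with the length and GC trend left in all 3 sums. The S-phase sum was not computed with the trend removed, and the H4 and H3.1 log2 ratios shrank there to -0.15 and -0.38.

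No listed mitotic gene was called lower in fip1-2, while 3 of 9 were higher and 6 did not pass (median log2 fold change 0.23), near the 27.0% higher of all genes. CDKB1;1, a plant mitotic kinase, had 120 and 138 in fip1-2, against 97.0 and 74.7 in control (log2 fold change 0.58 ± 0.16, limma adjusted p = 0.0073). That call was lost without control replicate 2 (adjusted p = 0.0676), without fip1-2 replicate 2 (adjusted p = 0.072) and by DESeq2 (adjusted p = 0.0709). CYCB1;4, a B-type cyclin, was higher at 0.44 ± 0.13 (adjusted p = 0.0132), but not without fip1-2 replicate 1 (adjusted p = 0.147). CDKB2;1 was higher at 0.23 ± 0.08 (adjusted p = 0.0227), but not without control replicate 1 (adjusted p = 0.0788) or without fip1-2 replicate 2 (adjusted p = 0.19). By DESeq2 the adjusted p was 0.112 for CYCB1;4 and 0.158 for CDKB2;1. CYCB1;3 did not pass (log2 fold change 0.34 ± 0.15, adjusted p = 0.0688). The mitotic list summed to 1845 and 1840 in fip1-2, against 1658 and 1529 in control.

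Markers of seeds, roots and shoots moved with the genotype as well, where 27.0% of all genes were called higher. All 6 seed markers were higher in fip1-2, with sums of 4960 and 1911 in fip1-2 and 254 and 63.1 in control, so that the mutant replicates themselves differed. All 5 root markers were higher, with sums of 5222 and 5099 in fip1-2 and 2264 and 2340 in control. Of the 5 shoot markers 4 were higher, with sums of 547082 and 572863 in fip1-2 and 413465 and 412655 in control. The SESA1 seed marker was the only one at 0 in a library, control replicate 2. The part of these tissues in the histone differences was not tested.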

How the data were processed

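RNA was sequenced from whole seedlings in 4 libraries, 2 of fip1-2 and 2 of control, grouped by the genotype in the labels. The submitters' processing notes list HISAT2, HTSeq, edgeR, FastQC and CASAVA 1.4 without their roles. The genome build and the annotation are not given in the sources used. The deposited values are a signal per gene, read counts that the authors divided by 1 size factor per library; all of them (100%, within 1e-06) gave whole reads. They were used as deposited. Genes with a mean of at least 10 were tested on log2(value + 2) in R 4.3.3 by limma 3.58.1, using lmFit and eBayes with trend, two-sided, Benjamini-Hochberg over 19931 genes, threshold 0.05, genotype as the only term. A fold change on this scale understates the change of low genes. On the recovered reads edgeR 4.0.16 called 10731 genes and limma 10726, and DESeq2 1.42.0 was a further alternative. The median SE of a log2 fold change was 0.094.

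Replicate libraries were counted separately, as their reads differed beyond sampling noise (chi-square of 2.72 per gene in fip1-2 and 2.97 in control). Names, transcript lengths, overlaps and promoters come from RefSeq TAIR10.1, in which 19 of the 41 genes have a symbol of their own; others are given by identifier. Protein sequences were not used here. A level compared between types was divided by the length of the longest annotated transcript. All values per kilobase assume that reads spread along the transcript, which is not settled while the series also names poly(A) tag sequencing. The members and all lists were chosen with earlier results of these data known. All 41 members may be named, with each library's value for types of up to 4 genes and for the 4 smallest p of larger types, and the 4 smallest p of the chaperone, S-phase and mitotic lists. SEF, SPT16, FAS1, FAS2, MSI1, HIRA, PCNA2, TSO2, MCM2, MCM3 and RNR1 were named after their values were seen.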

Additional observations from a re-analysis of the deposited data

How the results depend on the processing

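The calls were recomputed under 16 alternatives. Removal of the length and GC trend moved most results, and the cause was not tested: histone genes called lower went to 13, against 20 in the fit reported, the replication-coupled median to -0.02, against -0.24, and the replacement median to 0.09, against -0.05. The values of AT4G40030, HTB9 and HTA10 turned to 0.03, 0.01 and 0.00. The log2 ratios of the sums became -0.15 for H4, -0.38 for H3.1, 0.15 for H3.3, 0.08 for H2B, 0.19 for H2A, 0.08 for H2A.W, -0.10 for H2A.X and -0.49 for H2A.Z. Quantile normalization gave a replacement median of -0.13 and sum ratios of -0.40 for H4, -0.15 for H2B and -0.04 for H1. DESeq2 called 3 histone genes higher, against 6, and 14 lower, with 7232 genes called in all. Leaving out each library in turn gave 8889 to 9823 genes called, 4 to 7 histone genes higher, 16 to 19 lower, a replication-coupled median of -0.29 to -0.28 and a replacement median of -0.11 to 0.00. Fits that leave out a library assume that the lone library varies like the others. Same-numbered libraries did not deviate together (correlation -0.0117), and the fit reported uses no pairing. That correlation cannot show whether same-numbered libraries were grown or prepared together. With replicate number as a block 11004 genes were called, 7 histone genes higher and 21 lower; with the block and the trend removed together the counts were 9970, 9 and 14, the medians -0.02 and 0.09, and the reversed values the same 0.03, 0.01 and 0.00. Low counts limit AT3G27360 and AT3G09480 most, and their standard errors were 0.27 and 0.29.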
